A study of Mus musculus with 2 samples.

Results

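The non-clustered protocadherins are a family of cell-surface adhesion proteins, and 10 of their genes were examined here: Pcdh1, Pcdh7, Pcdh8, Pcdh9, Pcdh10, Pcdh11x, Pcdh17, Pcdh18, Pcdh19 and Pcdh20. They stand among 21887 protein-coding genes, counted over the 21 chromosomes with peaks. The genes were taken by name, and a peak of the histone mark H3K4me3 was counted for a gene when at least 1 bp of it lay in the gene model or within 1 kb to either side. The family was picked knowing that Pcdh7 carries the widest peak of the list, so the widths below describe the genes and were not tested.

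The peaks came from 1 chromatin immunoprecipitation library made with an antibody against H3K4me3 from NOS1+ enteric neurons sorted out of the mouse small intestine. NOS1 is the neuronal nitric oxide synthase, the enzyme of the inhibitory motor neurons of the gut wall. An input chromatin library of the same neurons had no file that was used here. The sources used here do not give genotype, strain, age, sex, the number of animals or the means of sorting. With 1 library there was no replicate, no condition to compare and no test across samples, and the sequencing depth is unknown.

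Protocadherins belong to the cadherin superfamily. They bind their own kind on a neighbouring membrane, and in the nervous system they are known for roles in axon growth, cell sorting and synapse formation. The clustered protocadherins lie side by side in tandem arrays, whereas each non-clustered gene stands alone with its own promoter. Most non-clustered genes fall into a delta-1 group, here Pcdh1, Pcdh7, Pcdh9 and Pcdh11x, and a delta-2 group, here Pcdh8, Pcdh10, Pcdh17, Pcdh18 and Pcdh19, and Pcdh20 was set beside the latter. A large exon near the start of these genes encodes the extracellular part of the protein. H3K4me3 is a mark of active and poised promoters that usually spreads a short way into the gene.

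Promoter windows in the RefSeq table (build GRCm38.p6, which shares its coordinates with mm10) matched 8 of the 10 genes. Pcdh1 and Pcdh11x had no entry. The windows of 3 genes are shown because they span the family, from the gene with the widest peak to a gene whose start site carried none. Each line gives the 250 bases before the annotated start site, 5′ to 3′ on the strand of the gene, with CpG dinucleotides in capitals. Pcdh7 is chr5:57717831-57718080 on the plus strand, Pcdh17 is chr14:84443313-84443562 on the plus strand, and Pcdh20 is chr14:88471397-88471646 on the minus strand.
Pcdh7: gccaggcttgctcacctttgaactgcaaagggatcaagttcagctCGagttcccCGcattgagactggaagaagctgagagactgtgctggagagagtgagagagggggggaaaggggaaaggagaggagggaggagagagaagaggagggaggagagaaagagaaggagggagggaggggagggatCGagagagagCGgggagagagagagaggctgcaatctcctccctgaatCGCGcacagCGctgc
Pcdh17: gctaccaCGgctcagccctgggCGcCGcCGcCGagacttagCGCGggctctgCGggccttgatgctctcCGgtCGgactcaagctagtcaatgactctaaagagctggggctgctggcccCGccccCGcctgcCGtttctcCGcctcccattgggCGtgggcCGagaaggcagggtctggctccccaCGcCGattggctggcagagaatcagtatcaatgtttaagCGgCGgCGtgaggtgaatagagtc
Pcdh20: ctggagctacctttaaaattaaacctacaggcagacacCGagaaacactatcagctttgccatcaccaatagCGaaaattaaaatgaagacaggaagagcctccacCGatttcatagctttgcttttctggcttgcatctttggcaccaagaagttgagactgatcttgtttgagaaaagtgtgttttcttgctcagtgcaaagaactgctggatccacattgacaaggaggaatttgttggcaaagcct
The stretch shown held 7 CpG at Pcdh7, 21 at Pcdh17 and 3 at Pcdh20. The Pcdh7 stretch contains a long run that is mostly A and G.

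All 10 genes carried at least 1 peak, where 67% of all protein-coding genes did. With only the best-scored 25% of peaks the order turned, to 2 of 10 against 37.3% of all genes. All 10 also had a peak within 1 kb of an end of the gene model, against a background of 61.4%. Of the 8 genes with an annotated start site, 7 had that site covered by a peak, and 53.7% of 17492 genes did. Pcdh20 was the exception. The 10 gene models with 1 kb to each side held 33 peaks, 29 of which overlapped the models themselves. Of the 33, 17 lay within 1 kb of a model end and 16 lay inside only. Peaks differed widely within the family: the widest peak per gene ran from 517 bp at Pcdh11x to 8862 bp at Pcdh7, with a median of 2646.5 bp against 1515 bp over the 14665 protein-coding genes with a peak. The widest peak was above the 90th percentile of those genes (2657 bp) at 5 of the 10, with 10% by construction in the background. Scores ran the other way. The deposited score was higher than the median of all genes with a peak (152.6) at only 2 of the 10, Pcdh1 and Pcdh7, against 49.9% in the background, and the median over the family was 79.5.

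Among the delta-1 genes, Pcdh7 stood first. Pcdh7 encodes a protocadherin whose cytoplasmic tail binds protein phosphatase 1. Its gene model spans chromosome 5 from 57716145 to 58133236 (mm10), 417 kb. The peak at its start ran from 57714134 to 57722995, 8862 bp with a score of 161. It ranked 1 of 29924 peaks by width and 5869 by score. From the start site at 57718081 it reached 3947 bp upstream and 4914 bp into the gene, further than at 99.9% and 99.8% of covered start sites. This start site lies inside the model, which begins at 57716145, so part of the upstream arm also lay in the model. The next genes in the order of width were Rhof and Setd1b, which share a peak of 8613 bp. Beyond the main peak only 2 narrow peaks lay in the model, at 6.14 kb (334 bp, score 6.28) and 326 kb (213 bp, score 7.32) after the start site. The first place depended on how the caller divides domains: with peaks closer than 1 kb merged into 1 region, Pcdh7 kept its 8862 bp and ranked 40 among genes, since other loci grew.

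Pcdh1, an adhesion protein known from airway epithelium, carried the highest score of the family. Its model spans chromosome 18 from 38185914 to 38212048. The widest peak, 3980 bp with a score of 211, covered the upper end of the model, from 798 bp outside it to 3181 bp inside. A second peak, of 1158 bp with a score of 29.0, covered the lower end, so Pcdh1 was marked at both ends. The other 4 peaks counted for Pcdh1 were 222 to 432 bp wide with scores from 5.61 to 11.8. With peaks closer than 1 kb merged, 7 peaks joined to a region of 8714 bp around the upper end, which put Pcdh1 (rank 42) next to Pcdh7. Of the 7 peaks 3 lay outside the counting window, the nearest (1444 bp, score 13.9) 1660 bp from the model.

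Pcdh9, a neuronal protocadherin, has the longest model of the family, 879 kb on chromosome 14 (93013700 to 93892834). Its main peak was 3252 bp wide with a score of 98.6 and covered the start site at 93890679, reaching 1267 bp upstream and 1984 bp downstream. The start site lies inside the model and the peak ended at 93891946, so the whole upstream arm lay within the model. The 3 other peaks lay 6.02, 189 and 391 kb into the gene. The one at 189 kb was 838 bp wide with a score of 15.4, wider than the other peaks found more than 10 kb inside the long genes Pcdh7, Pcdh9 and Pcdh17.

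The X-linked Pcdh11x stood at the other extreme of the delta-1 group. Its model spans 620 kb (X chromosome, 120290238 to 120910622) and held only 3 narrow peaks, all near the lower end. They were 153, 370 and 517 bp wide, with scores of 3.41, 11.8 and 14.1. Its widest peak was wider than that of only 7.20% of genes with a peak. The delta-1 group therefore held both the widest and the narrowest main peak of the family, and its median of 3616 bp carries little weight beside a range of 517 to 8862 bp.

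In the delta-2 group, Pcdh17 was marked most broadly. Pcdh17 is known for roles in axon extension and at the presynapse. Its model lies on chromosome 14 from 84443563 to 84537565. The peak at its start was 6526 bp wide with a score of 109, and ranked 19 of all peaks by width. It was one-sided, with 1120 bp before the start site and 5405 bp after it, the latter longer than at 99.9% of covered start sites. Narrower peaks of 760 and 240 bp followed 5681 and 6596 bp after the start, and merging peaks closer than 1 kb extended the domain to 7956 bp. The other 2 peaks, of 447 and 292 bp, lay 32.8 and 33.9 kb into the gene with scores of 5.74 and 8.38.

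Pcdh10, also called OL-protocadherin, recruits the actin-regulating WAVE complex in axons. Its model lies on chromosome 3 from 45378398 to 45434579. The main peak was 3106 bp wide with a score of 64.2, and it was the only one of the 7 covering peaks to reach further upstream (2382 bp) than downstream (723 bp). Over all covered start sites 84.6% had the longer arm downstream. The short downstream arm went with a break in the called domain: 2 more peaks of 914 and 1628 bp followed at 835 and 1836 bp after the start site, and merging joined all 3 into 5846 bp.

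The remaining delta-2 genes had narrower marks. Pcdh18, whose tail binds the adaptor Dab1, held a single peak, at chromosome 3 from 49755804 to 49757990, with a width of 2187 bp and a score of 94.8. It was the only gene of the family with 1 peak. Pcdh19, the X-linked gene mutated in an inherited epilepsy, had a main peak of 1652 bp with a score of 40.3. That peak reached 63 bp upstream and 1588 bp downstream of the start site, and 3 fragments of 154 to 370 bp flanked it. Merging gave Pcdh19 a region of 4561 bp from 5 peaks, 1 of them outside the counting window. Pcdh8, which in neurons is induced by activity and draws N-cadherin off the surface, had a main peak (1102 bp, score 22.8) that ran 527 bp upstream and 574 bp downstream, and a second, upstream one (181 bp, score 3.09).

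Pcdh20 carried no peak over its annotated start site. Its 2 peaks lay inside the gene, the first (744 bp, score 36.0) beginning 130 bp after the start and the second (958 bp, score 15.1) 1024 bp after it. Pcdh20 was the only gene of the family whose widest peak did not have its highest score.

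**Figure D1:**
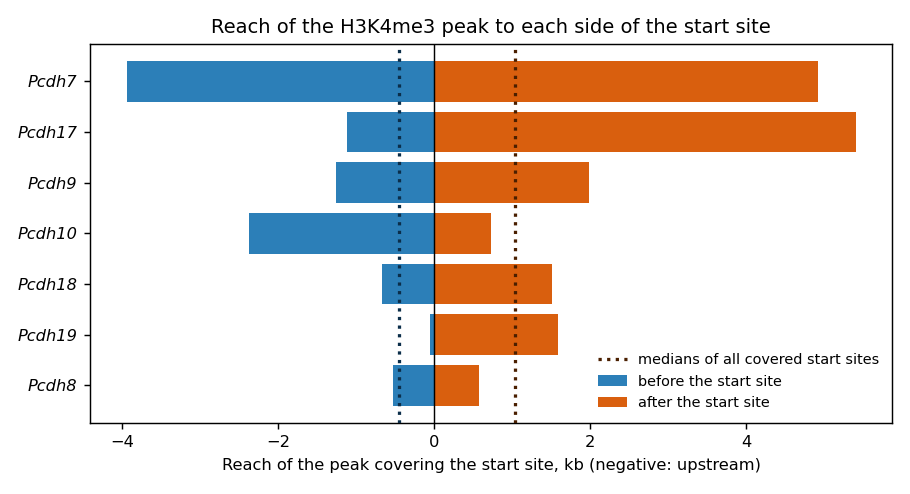
Reach in kb of the peak covering the annotated start site, upstream (negative) and downstream (positive), for the 7 genes with a covered start site, with dotted lines at the medians of all 9399 covered start sites (453 bp upstream, 1035 bp downstream). Pcdh7 is long on both sides, Pcdh17 downstream, and Pcdh10 upstream.

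Over the 7 covered genes the median reach was 1120 bp upstream and 1588 bp downstream, against 453 and 1035 bp over all covered start sites. The upstream arm exceeded the overall median at 6 of 7 (all but Pcdh19) and the downstream arm at 5 of 7 (all but Pcdh8 and Pcdh10). At Pcdh7, Pcdh9, Pcdh18 and Pcdh19 the annotated start site lies inside the gene model. Part of the upstream arm there, and all of it at Pcdh9, therefore lay within the model. Exon positions were not used here, so how much of the large first exons lay under the downstream arms was not measured.

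Most of the main peaks had low scores for their width. Each main peak was set beside all peaks within 10% of its width, itself included. At 8 of the 10 genes the score was lower than the median of peaks of like width, and the exceptions were again Pcdh1 and Pcdh7. The main peak of Pcdh10 scored above only 5.03% of 576 peaks of like width, whose median was 160.9. At Pcdh19 the corresponding share was 5.87%, at Pcdh8 6.11% and at Pcdh20 5.77%. Pcdh1 scored above 89.5% of 237 peaks of like width. Only 3 other peaks lay within 10% of the width of Pcdh7, so its place among them has little meaning. The 75 peaks of 5000 bp or more in the whole list had scores from 70.8 to 258 with a median of 148, which places Pcdh7 (161) near the middle and Pcdh17 (109) lower.

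**Figure D2:**
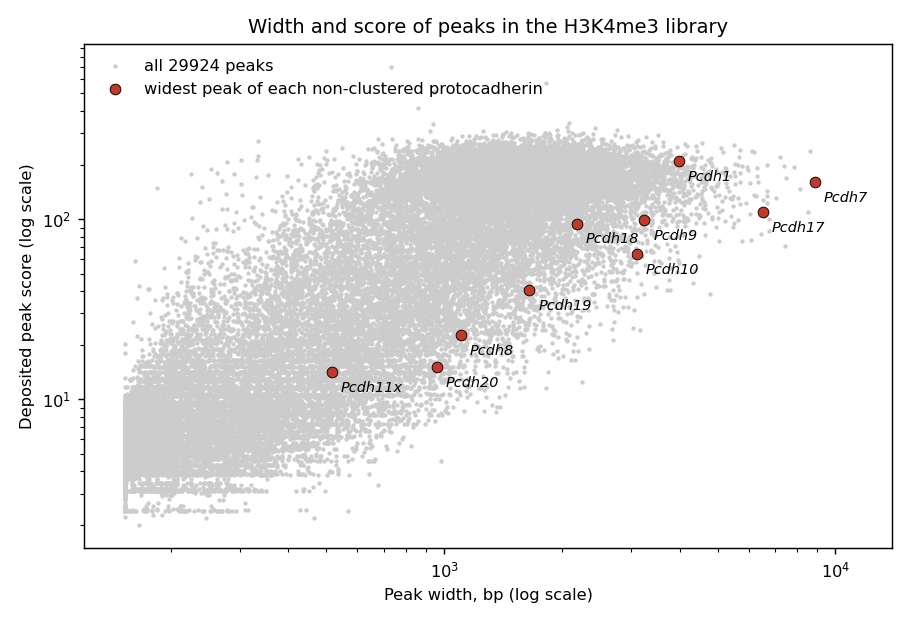
Width in bp (horizontal, log scale) and deposited score (vertical, log scale) of all 29924 peaks in grey, with the widest peak of each of the 10 genes in red. Of the 10 red points 8 lie below the median score of peaks of like width, and Pcdh7, at 8862 bp, is the point furthest to the right.

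Pcdh19 and Pcdh11x lie on the X chromosome, where scores were lower in general. Of 966 X-linked protein-coding genes 49.5% had a peak, and the median highest score of those with one was 70.8, against 152.6 for all genes with a peak. Pcdh19 (40.3) and Pcdh11x (14.1) were below the X-linked median too. The sex of the animals is not stated, and the part of the X chromosome in these scores was not tested.

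Peaks inside the gene models, away from both ends, were narrow and weak. The 16 peaks of this kind were 313 bp wide in the median, with a median score of 7.85 and a highest score of 24.7 at Pcdh10. The median over all peaks of the list was 690 bp and 35.7. Only 6 of the 16 lay more than 10 kb from the start site or the main marked end. More than 1 peak was found at 9 of the 10 genes, against 35.7% of all protein-coding genes, but long models collect more peaks and 6 of the 10 genes are 50 kb or longer. Over the 4361 genes of that length with a peak the median number of peaks was 2. Over all 10 genes of the family, those under 50 kb included, it was 3. With peaks closer than 1 kb merged, 5 of the 10 genes had more than 1 region, against 14.1% of all genes, and the median fell to 1.5. With the better-scored 50% of peaks 0 of the 10 had more than 1, against 15.1%.

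The counting window left out little. The outermost peaks just inside the 1 kb limit lay 929 bp (Pcdh1, score 7.18), 754 bp (Pcdh19, score 7.63) and 661 bp (Pcdh8, score 3.09) from the gene model. The nearest peaks outside it lay 1660 bp from Pcdh1 (score 13.9), 1893 bp from Pcdh19 (score 6.28) and 2667 bp from Pcdh8 (score 11.1). No other gene of the family had a peak between 1 and 10 kb from its model.

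The surroundings of these genes were sparse. The median distance from a gene of the family to the nearest protein-coding gene was 763 kb, against 5.29 kb over all protein-coding genes. A gap of at least 1 Mb without protein-coding genes bordered 8 of the 10 models, against 2.5% of all models, and Pcdh1 and Pcdh8 were the exceptions. Pcdh7 had 3595 kb of such sequence on the side of Stim2 and 3676 kb on the side of G6pd2. Pcdh9 and Pcdh20 are each other's neighbours on chromosome 14, 4542 kb apart, with no called peak between them. The 11 gaps of this size beside the family covered 32.8 Mb and held 2 peaks, or 0.0609 per Mb. The 285 other gaps of this size held 0.657 peaks per Mb. No peak was called in 9 of the 11 gaps and in 54.4% of the others. Thus the wide peaks of Pcdh7, Pcdh9, Pcdh10 and Pcdh17 stood almost alone over several Mb. Since the positions of genes and gaps are fixed by annotation, no test was made.

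Long noncoding RNA (lncRNA) models met the main peak at 6 of the 10 genes, where 11.5% of all genes with a peak had such an overlap. A wider peak can meet more models, and the background was not matched for peak width. At Pcdh10 the start site of 2610316D01Rik lay 138 bp upstream on the opposite strand, and at Pcdh17 that of Gm32498 lay 159 bp upstream, also on the opposite strand. Such a divergent lncRNA start within 1 kb was thus found at 2 of the 8 genes with a start site, against 4.26% of all. At Pcdh19 the start of Gm26851, on the opposite strand, lay 1213 bp away inside the gene. The models of 4932441J04Rik at Pcdh7, 2010320O07Rik at Pcdh1 and Gm9748 at Pcdh8 also overlapped the main peak, with strands not in the table. At Pcdh7, 3786 bp of the 8862 bp peak lay over 4932441J04Rik. A peak list cannot divide such a domain between the 2 genes, and whether the upstream arms belong to the lncRNA genes was not tested.

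The promoter windows differed in CpG content. In windows of 300 bases, 250 before the start and 50 after, the genes had a median of 18 CpG, against 13 over 17492 protein-coding genes, 22 over covered start sites and 3 over the others. Pcdh17 (26 CpG), Pcdh10 (24), Pcdh18 (23), Pcdh9 (18) and Pcdh19 (18) lay above the overall median, as did Pcdh8 (14). Pcdh20 had 4 CpG, and of the 5101 windows with no more than that only 3.90% had a covered start site. Pcdh7 had 11 CpG, fewer than the median, beneath the widest peak of the list. Of 1003 windows within 1 CpG of it 66.7% had a covered start site. The Pcdh7 window consisted of A and G to 70.7% on the gene's strand, more than 99.7% of all windows, which is the run visible in the sequence printed above. At Pcdh7 and Pcdh9 the window lies inside the gene model and not at its outer end. These windows are far narrower than the peaks, and the sequence of the rest of the domains was not analysed here.

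The CCAAT box, the binding word of the factor NF-Y, was looked for on both strands, as were TATAAA and the GC box GGGCGG. The CCAAT box, or its reverse complement ATTGG on the gene's strand, was present in 7 of the 8 windows, against 39% of all windows, and was missing only at Pcdh7. In 6 of them a box began between 82 and 32 bases before the start site. The stretches around it are shown one below the other, 5′ to 3′ on the gene's strand, with the box in capitals: Pcdh8 at chr14:79771361-79771395 (minus), Pcdh9 at chr14:93890742-93890776 (minus), Pcdh10 at chr3:45378333-45378367 (plus), Pcdh17 at chr14:84443490-84443524 (plus), Pcdh18 at chr3:49757329-49757363 (minus) and Pcdh19 at chrX:133689039-133689073 (minus).
Pcdh8: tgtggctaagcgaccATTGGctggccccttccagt
Pcdh9: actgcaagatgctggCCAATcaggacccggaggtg
Pcdh10: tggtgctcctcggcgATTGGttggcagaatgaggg
Pcdh17: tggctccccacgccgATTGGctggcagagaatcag
Pcdh18: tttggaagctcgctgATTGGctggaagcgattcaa
Pcdh19: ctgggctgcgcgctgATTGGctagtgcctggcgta
The box was reversed (ATTGG) in 5 of these 6 and forward at Pcdh9. In these stretches the word AGCCAAT, on either strand, was shared by Pcdh8, Pcdh17, Pcdh18 and Pcdh19 (9.66% of all windows hold it), and CCAATCA by Pcdh9, Pcdh18 and Pcdh19 (9.56%). Both words were spelled from these windows, so nothing can be read from the difference. Pcdh17 held another ATTGG 101 bases before its start, Pcdh10 another 34 bases after its start, and Pcdh20 a CCAAT 185 bases before its own. GGGCGG was present at Pcdh10, Pcdh17, Pcdh18 and Pcdh19, 4 of 8 against 46.3% of all windows, and TATAAA at Pcdh8, 1 of 8 against 13.3%. A match says only that the letters are there.

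Other members of the superfamily and the proteins that protocadherins act through were set beside the family. The WAVE complex and other intracellular partners were all marked: each of the 15 genes had a peak, where 67% of all protein-coding genes did. Their medians were 1868 bp for width and 191.7 for score. They included Smad3 (3761 bp), Wasf1 (2968 bp), which encodes a WAVE protein, Ctnnb1 (2651 bp), which encodes beta-catenin, and Taok2 (2106 bp), the kinase that acts with Pcdh8. Their median width was below, and their median score above, the values of the protocadherins themselves (2646.5 bp and 79.5). Of the 10 giant cadherins (Fat, Dachsous and Celsr genes and Cdh23) 9 had a peak, against the same 67%, with a median of 1820 bp. Fat1 (4658 bp), Fat4 (4267 bp), Fat3 (2142 bp) and Cdh23 (2034 bp) were the widest, and Fat2 had none. Of 19 classical and other cadherins 16 had a peak, also against 67%, with a median of 1280.5 bp and a median score of 36.1. Cdh2, the N-cadherin gene whose product associates with Pcdh19 and Pcdh8, led them with 3696 bp and a score of 145, before Cdh6 (2978 bp), Cdh4 (2232 bp) and Cdh11 (2231 bp), while Cdh5, Cdh8 and Cdh15 had none.

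Among 7 further genes, 2 protocadherins and 5 protocadherin-related Cdhr genes, 2 had a peak, Pcdh15 (1779 bp, score 62.5) and Cdhr3 (413 bp, score 5.36), where 67% of all protein-coding genes did. Pcdh12, an endothelial protocadherin, had none. With windows of 2500 bp the count was 4 of 7, against 67.9% of all genes. Among clustered protocadherins 39 of 57 models (68.4%) held a peak, near the share of all protein-coding genes (67%), at a median width of 1925 bp. Models of the alpha and gamma clusters share their last exons and overlap, so 1 peak there can be counted for many genes. The widest peak at a clustered gene had 3619 bp. None of the 5 related lists held a peak as wide as those of Pcdh7 and Pcdh17. For Pcdh7 this was fixed in advance, since its peak is the widest of all 29924, and the peak of Pcdh17 ranked 19.

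**Figure D3:**
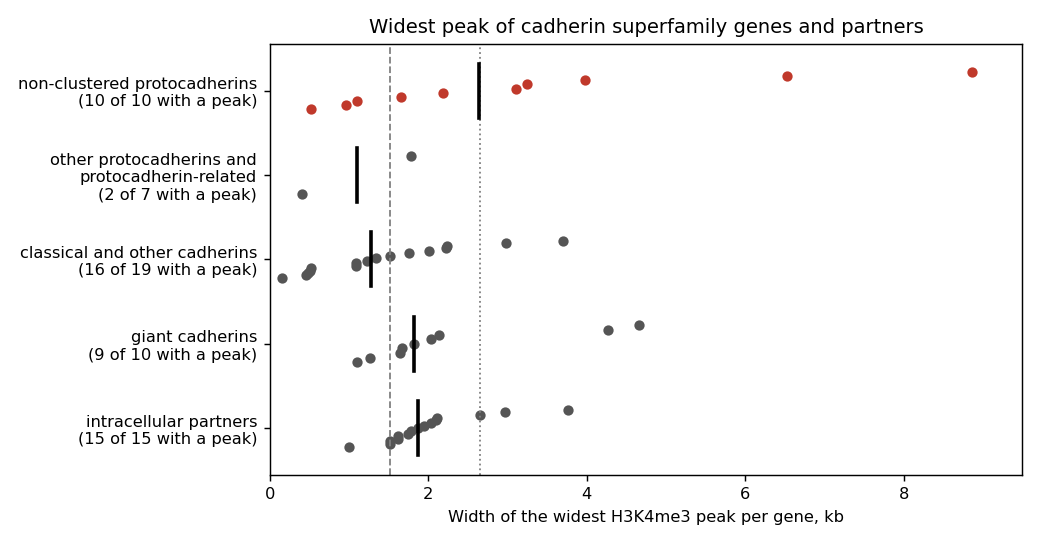
Width in kb of the widest H3K4me3 peak per gene for the non-clustered protocadherins (red) and 4 related lists (grey), 1 point per gene with a peak, black bars at list medians, and vertical lines at the median (dashed, 1515 bp) and the 90th percentile (dotted, 2657 bp) of all protein-coding genes with a peak. The 2 points furthest to the right are Pcdh17 and Pcdh7.

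Markers of the sorted cells and of other gut cells bear on whose chromatin these peaks describe. All 7 pan-neuronal and all 4 enteric neuron markers had a peak, beside a background of 67%, with median scores of 36.9 and 82.0. The median highest score of all genes with a peak was 152.6, above the median of every marker list, neuronal ones included. Of the 4 nitrergic markers 3 had a peak, 2 of them at a model end, and Vip had none. Their median score was only 13.0, but the scores ran from 4.67 to 146.8. Marker scores are not given per gene here, so neither the gene with the highest value nor the score of Nos1 is shown. For other enteric neuron classes the count was 1 of 5. All 5 glial, all 5 smooth muscle and all 5 interstitial or fibroblast markers carried a peak as well. Their median scores of 31.3, 17.4 and 28.2 were each above the nitrergic median. Their highest scores of 85.9, 32.6 and 54.7 were each below the nitrergic highest, which is the score of a single gene. Counts were lower for epithelium (2 of 4, median score 26.4), endothelium (2 of 3, 49.6) and leukocytes (1 of 4, 7.18). With 1 library, fewer cells with a mark and a weaker mark per cell cannot be told apart, and the part of other cell types in the protocadherin peaks was not tested.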

How the data were processed

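One H3K4me3 library of sorted NOS1+ mouse enteric neurons was analysed from its deposited peak list. MACS2 called the peaks on a paired-end library, per the file headers, and BWA, Picard, MACS2 and mm10 are named in the submitters' processing notes. The deposited score per peak has no stated scale (smallest value 2.00) and was used only within this list. The sources used here give neither the threshold, the treatment of duplicates nor the depth. Gene models, start sites and promoter windows came from RefSeq tables on GRCm38.p6. A peak counted for a gene at an overlap of 1 bp with the model extended by 1 kb. Values were computed with Python 3.11.15, pandas 2.3.3 and numpy 2.4.6, and the code was tested on simulated data. The genes and lists were chosen with earlier results of these data known. Named were all 10 genes, up to 4 genes per related list by width and those without a peak where 4 or fewer, neighbours and genes next to Pcdh7 in width. Alternatives were better-scored peaks, other windows, a larger overlap, merged peaks and a minimum width. Protein sequences, planned as a description, were not used here. Genes are not replicates, so no p-value was computed.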

Additional observations from a re-analysis of the deposited data

How the results depend on the processing

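All values rest on 1 library of unknown depth, and width and presence of peaks depend on the threshold of the caller. No paired analysis was possible because no result comes from a test and each group holds 1 sample. Windows of 0, 500 or 2500 bp, an overlap of 50% of the peak and a minimum width of 300 bp left all 10 genes with a peak and the median width at 2646.5 bp. Without extension of the model 7 of the 10 had a peak at an end, and no share of all genes is given for this setting. Pcdh9, Pcdh11x and Pcdh20 had none there, although the main peak of Pcdh9 still covered its annotated start site. With only the better-scored 50% of peaks, Pcdh8 and Pcdh11x had no peak, which left 8 of 10 genes against 57.8% of all genes. The median of the widest peaks was then 3179 bp, that of the highest scores 96.7, and 8 peaks were left in the family. The related lists then counted 1 gene of the list of other protocadherins and Cdhr genes, 8 classical and 5 giant cadherins. With only the best-scored 25% of peaks, Pcdh1 and Pcdh7 kept a peak, 2 of 10 against 37.3% of all genes. Over a model 2 genes had a peak and at an end 2, with 2 peaks, and the medians were 6421 bp for width and 186 for score. The lists then counted 0 other protocadherins or Cdhr genes, 1 classical and 4 giant cadherins and 19 clustered protocadherins. With windows of 2500 bp 4 of the 7 other protocadherins and Cdhr genes had a peak, against 67.9% of all genes. Merging peaks closer than 1 kb gave 19 regions with a median width of 3906.5 bp.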
